A study of Mus musculus with 2 samples.

Results

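Open regions inside repeats were distal stretches of accessible chromatin whose sequence is mostly marked as repeat. Merging every group of overlapping peaks gave 143793 regions, and 65778 of them held a peak of each library. Of these shared regions, 43066 lay more than 1 kb from every protein-coding transcript start and are called shared distal regions here. In 445 of the shared distal regions, 80% or more of the bases were soft-masked, that is, printed in lower case in the reference as interspersed or simple repeats. These 445 regions are the members, 1.03% of all shared distal regions (exact 95% interval 0.940 to 1.13%, counting error only), and the other 42621 shared distal regions are the set they are compared with.

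Adrenal glands were taken at an age of 18 to 20 months from male adults of B6CASTF1/J, a hybrid between a B6 and a CAST parent, and profiled by DNase-seq, which maps where the enzyme DNase I cuts accessible DNA in nuclei. The 2 libraries, labelled biological replicates 1 and 2, form 1 group with no treatment or control, and 1 donor entry covers both, so separate animals are not stated and every spread below may be technical. Promoters of 5 of 8 cortex markers (Star, Cyp11a1, Cyp11b1, Cyp11b2 and Nr5a1) and 3 of 7 medulla markers (Chga, Chgb and Slc18a1) held a peak in both libraries, against 0 of 4 liver and 0 of 4 kidney markers. Promoters of the cortex markers Hsd3b1, Mc2r and Cyp21a1 and of the medulla markers Th, Dbh, Pnmt and Phox2a did not. Bulk tissue cannot tell fewer open cells from less opening per cell.

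Much of the mouse genome descends from mobile elements: short interspersed elements (SINEs) such as B1 and B2, which derive from small RNA genes, long L1 elements with promoters of their own, and long terminal repeats of endogenous retroviruses, which prime their copying from a tRNA. Satellites are tandem arrays. CTCF is a zinc finger protein that anchors chromatin loops together with cohesin, and rodent B2-type SINEs are known for carrying sites that it can bind.

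The sequences that carry the first result are the CTCF consensus matches of the 8 tallest members that hold one, each with 24 bases to either side, read 5′ to 3′ on the strand of the match. Capitals mark the match. Coordinates are 1-based on GRCm38 and letters are those of the RefSeq copy of that build.
Slc25a25 member, chr2:32487272-32487331, minus strand: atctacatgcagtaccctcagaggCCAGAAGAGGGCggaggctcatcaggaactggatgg
Tmem50a member, chr4:134913628-134913687, minus strand: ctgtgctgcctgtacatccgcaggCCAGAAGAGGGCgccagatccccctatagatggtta
Tmem39a member, chr16:38632229-38632288, plus strand: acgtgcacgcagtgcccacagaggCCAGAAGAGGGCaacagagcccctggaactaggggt
Ano6 member, chr15:95773644-95773703, plus strand: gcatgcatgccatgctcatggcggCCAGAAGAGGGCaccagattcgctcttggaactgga
Bcdin3d member, chr15:99469259-99469318, minus strand: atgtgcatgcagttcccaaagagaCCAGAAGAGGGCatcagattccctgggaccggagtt
C3 member, chr17:57219317-57219376, plus strand: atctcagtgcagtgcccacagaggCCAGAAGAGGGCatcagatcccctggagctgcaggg
Ccdc65 member, chr15:98710602-98710661, minus strand: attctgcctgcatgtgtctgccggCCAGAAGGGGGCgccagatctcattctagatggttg
Sgpp1 member, chr12:75772834-75772893, minus strand: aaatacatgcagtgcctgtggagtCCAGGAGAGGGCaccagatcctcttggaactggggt

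The match was the same string in 6 of the 8, and the flanking bases of several were alike as well. All 8 lay in introns of protein-coding genes or between genes, and a footprint of each library overlapped every one of the 8 matches. A footprint is a short stretch that the authors called as protected from cutting inside an accessible region.

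Masked sequence was scarce among the shared distal regions. Soft-masked letters made up 36.4% of the reference, 90.8% of the bases of members, and 9.31% of the bases of all shared distal regions. No base was masked in 48.1% of shared distal regions. Intervals of the same width moved by 1 kb were masked over 80% or more of their bases in 6.48% of cases on the lower-coordinate side and 6.56% on the other side, against 1.03% for the shared distal regions themselves. Every base was masked in 116 members (26.1%). The treatment of reads that align at several places is not given in the sources used here. Its part in the scarcity of masked sequence was not tested.

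Just inside the threshold, 3 members had exactly 80% masked bases, and their nearest starts belonged to 2010300C02Rik, Hspa4 and Psmb7. Their heights were 1.52, 0.823 and 0.329 in replicate 1 and 1.52, 0.705 and 0.780 in replicate 2. Just outside it, 3 regions near Itih2, Acot10 and Olfr1098 had between 79.7% and 79.8% masked bases, with heights of 0.409, 0.292 and 0.181 in replicate 1 and 0.487, 0.232 and 0.172 in replicate 2. All 6 fell inside the range that the members spanned.

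Members were lower than the rest of the shared distal regions in both libraries. Height is the authors' signal at the tallest peak of a region, and in each library it came in whole multiples of a step, 0.00531 in replicate 1 and 0.00750 in replicate 2. In replicate 1 the median height was 0.637 for members (lowest 0.0584, highest 5.25) and 0.850 for other shared distal regions, and in replicate 2 it was 0.705 for members (lowest 0.0750, highest 10.3) and 1.10 for the others. The difference of median log2 height, members minus others, was -0.42 in replicate 1 and -0.65 in replicate 2, a mean of -0.53 ± 0.16 (SD, n = 2). The difference exceeded the spread between libraries, and it was -0.35 when only regions with 50% or more unique 36-base words were kept on both sides. The median member height stood for 120 steps in replicate 1 and 94 in replicate 2, and the lowest for 11 and 10 steps.

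Members thinned out with height. They were 2.25% of the lowest decile of shared distal regions in replicate 1 and 2.83% in replicate 2, but 0.255% and 0.163% of the highest decile. A peak of each library in the shorter, stricter peak lists was found for 185 members (41.6%), against a background of 56.8% over all shared distal regions.

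**Figure D1:**
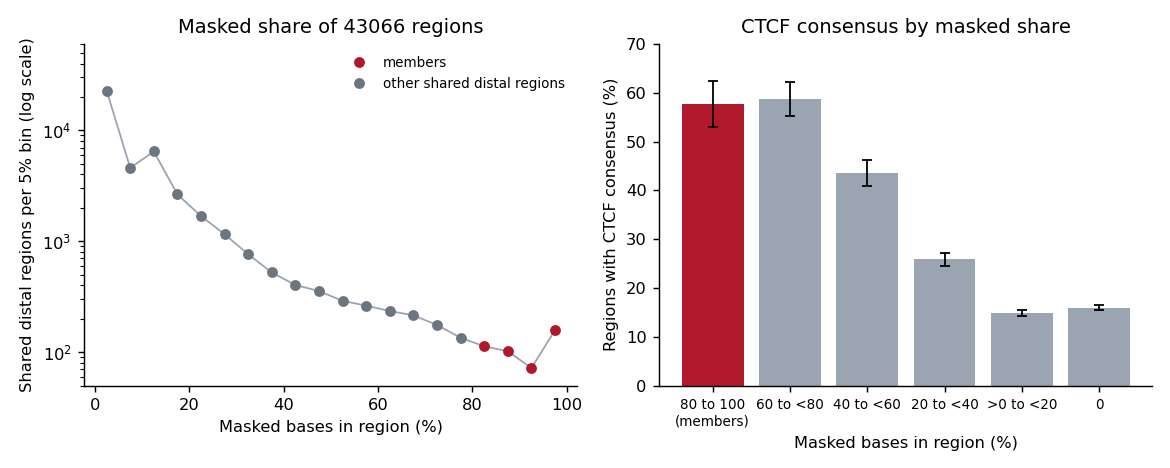
Left, number of shared distal regions per 5% bin of masked bases (log axis), with the 445 members in red; right, percent of regions with a CTCF consensus match by masked share, with exact 95% intervals that cover counting error only. The match was found in 57.8% of members, in 58.7% of regions masked over 60 to 80% and in 15.9% of regions with no masked base.

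A CTCF consensus match was the most frequent in members of the 20 motifs searched. It was found in 257 members (57.8%, exact interval 53.0 to 62.4%), against a background of 18.5% over all shared distal regions. In windows of 150 bp it was present at 57.8% of member centres and 17.7% of other centres, and 1 kb away it was present in 0.674% of windows beside members and 0.962% beside other regions. The share climbed with masking: 15.9% of regions with no masked base held a match, 14.8% of those masked below 20%, 25.9% from 20 to 40%, 43.5% from 40 to 60% and 58.7% from 60 to 80%. The members therefore did not stand above the regions masked over 60 to 80%. Among the 116 members with every base masked the share was 37.1%.

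The match was mostly one string. On the strand of the match, 181 of 257 members (70.4%) read ccagaagagggc, and 21 read ccagcagagggc. The first string made up 10.3% of matches in the other shared distal regions that hold one (793 of 7713). Over the whole reference outside 1 kb of protein-coding starts, 49301 of 64133 masked consensus matches read this string, open or not. Of unmasked matches there, 197 of 23681 did. The string is thus the prevailing one among masked matches at large, not a trait of members alone. Bases around the match were alike too: over the 48 positions from 7 to 30 bp from its centre, the commonest base was found in a median of 56.4% of members, against 33.0% of the other regions with a match. Members that align to each other share their sequence, so they are not independent cases.

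Most copies of this string in the genome lay outside the shared distal regions. The reference, outside 1 kb of protein-coding starts, holds 49301 masked copies of ccagaagagggc, and 968 of them (1.96%) lay in a shared distal region of any masked share. It holds 197 unmasked copies, of which 12 (6.09%, exact interval 3.19 to 10.4%) did. Of masked consensus matches with any other string, 755 of 14832 (5.09%) lay in a shared distal region, and of unmasked ones 6332 of 23484 (26.96%). For the masked copies of ccagaagagggc, the percent under any peak was 2.35 in replicate 1 and 2.96 in replicate 2. The part that reads aligning at several places had in these shares was not tested.

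Footprints overlapped the CTCF match of most members that held one. A footprint overlapped the match by 1 bp or more in 240 of 257 members (93.4%) in replicate 1 and in 235 (91.4%) in replicate 2. It did so in both libraries in 226 (87.9%, exact interval 83.3 to 91.7%). In the other shared distal regions with a match, the figures were 95.2% in replicate 1, 96.1% in replicate 2 and 93.2% in both. The match lay within 25 bp of the region's centre in 87.9% of members and 89.4% of other regions. Members with a footprint over the match in both libraries had median heights of 0.831 and 1.01 in replicates 1 and 2, while the remaining 31 had 0.473 and 0.412.

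**Figure D2:**
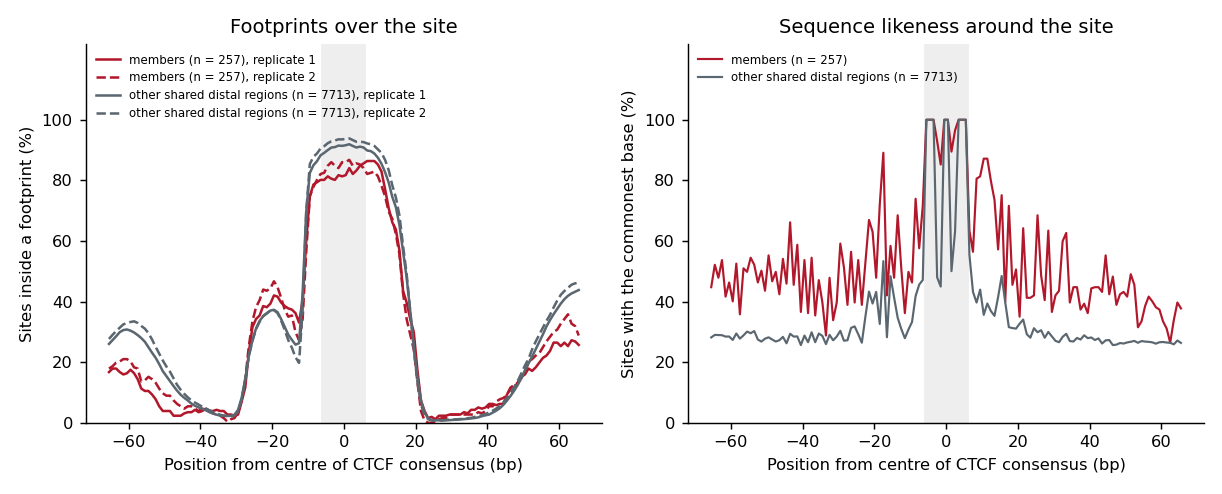
Position from the centre of the CTCF consensus (bp, on the strand of the match; the match is shaded) against, left, the percent of sites inside a footprint in each library and, right, the percent of sites that carry the commonest base. Members (n = 257, red) and other shared distal regions with a match (n = 7713, grey) had a like footprint shape, while the bases around the match were more alike among members. The curves of members peaked at 86.4% in replicate 1 and 86.8% in replicate 2. A footprint overlapping the match by 1 bp or more was found in 93.4% and 91.4% of members.

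Members with the CTCF match were taller than members without it and lower than other CTCF regions. With the match, median heights were 0.770 in replicate 1 and 0.930 in replicate 2; without it they were 0.488 and 0.480. The difference of median log2 height, with minus without, was 0.81 ± 0.21 (SD, n = 2). Of members without the match, 100 of 188 had under 50% unique 36-base words, against 9 of 257 with it. Among members with 50% or more unique words, medians in replicates 1 and 2 were 0.788 and 0.949 with the match, and 0.515 and 0.529 without it. The 7713 other shared distal regions with a match had medians of 1.45 and 1.77, and the difference from them was -0.91 in replicate 1 and -0.93 in replicate 2, a mean of -0.92 ± 0.01 (SD, n = 2). Both differences exceeded the spread between the libraries. Median height of CTCF regions was lower in each band of masked share from 0 upward, down to 0.844 in replicate 1 and 0.930 in replicate 2 for bands masked over 60 to 80%. Regions without the match were lower there too: 0.595 and 0.720 in replicates 1 and 2, against 0.786 and 1.03 with no masked base. In every band, CTCF regions were taller than regions without the match. Against the most similar band, masked over 60 to 80%, CTCF members were lower in replicate 1 (0.770) and had the same median in replicate 2 (0.930).

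In part of the CTCF members a second string lay at a common distance from the match. The letters TGTGGTT, a consensus for RUNX factors (searched on both strands, like each motif here), were found in 89 members (20.0%), and in 85 centre windows (19.1%), against 3.10% of centre windows of other regions. Of the 89, 70 also held the CTCF match, which 257 members hold in all. Members that align to each other share their sequence, so the 70 are not independent cases. No RUNX match overlapped a CTCF match, 68 of the 70 lay downstream of it, and in 46 the centres were exactly 43.5 bp apart. A match is a string in the reference, and binding by RUNX proteins was not measured.

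Of other factors' strings, those of AP-1, NR5A1, SP and KLF, and TEAD factors were less frequent in member centres, while the E-box and YY1 strings had the higher share there. The AP-1 consensus (TGANTCA, for Fos and Jun dimers) was found in 6.07% of member centres and 10.4% of other centres. The consensus CAAGGTCA of NR5A1 (SF-1), the nuclear receptor that directs steroidogenic genes, was found in 1 member centre (0.225%), against 2.00% of other centres. SP and KLF factors (GGGGCGGG) had 1 member centre against 2.51% of others, and TEAD factors (ACATTCC) had 4 (0.899%) against 2.45%. The E-box CACGTG was found in 21 member centres (4.72%, exact interval 2.94 to 7.12%) and 3.55% of other centres, and the YY1 string in 3 (0.674%, 0.139 to 1.96%) and 0.298%, differences within the members' intervals. The strings of NFI, CRE (TGACGTCA), C/EBP (TTGCGCAA) and ETS (CCGGAAGT) were in no member centre, and in 0.192%, 0.469%, 0.141% and 0.354% of other centres. The exact interval for none of 445 reaches 0.826%, above each of these shares, so no difference was detectable for these strings. Members were less rich in G and C, with a median of 48.5% against 52.9%.

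Footprints anywhere in the region, of each library, were found in 365 members (82.0%, exact interval 78.1 to 85.5%), against a background of 85.9% over all shared distal regions. With the CTCF match the share was 94.9%, and without it 64.4%. The member with the most footprint bases shared by both libraries was a tandem array near Tlr4, the lipopolysaccharide receptor gene (chr4:67208501-67208660, 122 bases). Its heights were 1.94 in replicate 1 and 0.922 in replicate 2. The others of the first 5 were CTCF members near Slc25a25 (86 bases), Ablim1 (82), Eif1 (81) and Ano6 (80). The Ablim1 member, in an intron, had heights of 1.22 and 1.83 in replicates 1 and 2, and the Eif1 member 2.48 and 2.64.

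The tallest members fell into 2 kinds. Of the 10 tallest by mean height, 7 held the CTCF match and lay in sequence that was 84.8% or more unique in 36-base words. In each of the 7 the libraries were less than 2-fold apart. The member 35756 bp from the start of Slc25a25, which encodes a mitochondrial ATP-Mg/phosphate carrier, had 5.25 in replicate 1 and 5.01 in replicate 2. The member near Tmem50a had 3.65 and 3.01, that near Tmem39a 3.18 and 3.11, and that near Ano6, a phospholipid scramblase gene, 3.18 and 2.95. The member near Bcdin3d had 2.93 and 3.16, the intronic one near C3, the central complement gene, 2.88 and 2.92, and the one near Ccdc65 2.58 and 3.11. The Slc25a25 member ranked 851st in mean height among all shared distal regions. The other 3 of the 10 were multi-copy regions, described below, and 2 of these had unlike heights in the libraries.

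**Figure D3:**
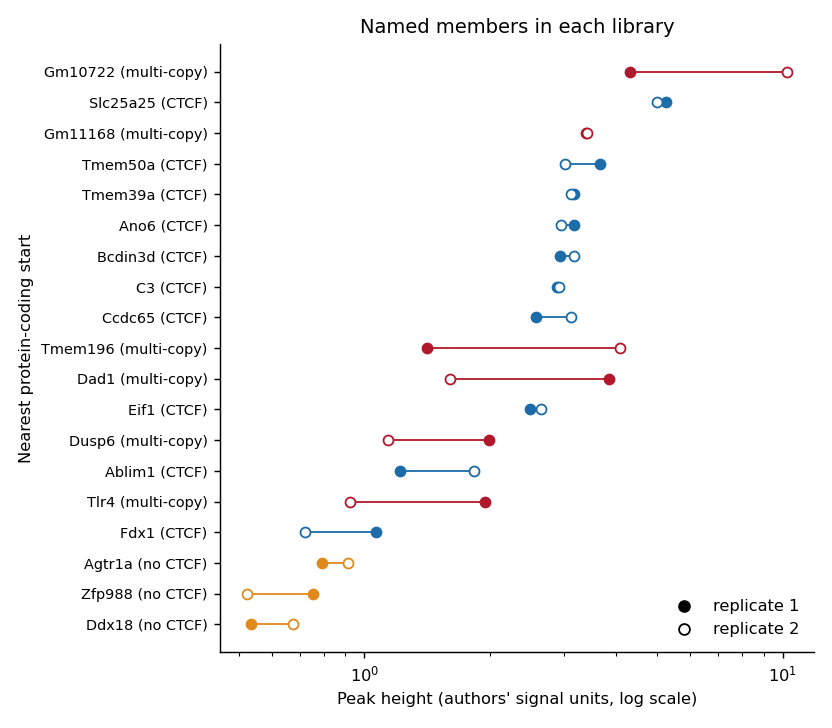
Peak height (authors' signal units, log axis) of the named members in replicate 1 (filled) and replicate 2 (open), labelled by nearest protein-coding start and by kind. The CTCF members near Slc25a25, Tmem39a and C3 had near-equal heights, while the multi-copy members near Gm10722, Tmem196 and Dad1 were more than 2-fold apart.

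Sequence families were built by aligning members to each other. Members linked at 80% identity over 50% of the shorter one formed 1 family of 275 (61.8% of members), present on all 21 chromosomes, and 20 small families of 2 to 7 with 59 members in all, while 111 members stood alone. The large family is loosely joined: its members linked directly to a median of 10 others, and at 90% identity the largest family held 43. It also took in members with long runs of the unit ac, such as those on chromosome 15 and near Rhou. The large family is therefore a chain of alignments and not a single kind of repeat. It held the CTCF match in 220 of 275 members, against 37 of the 170 members outside it. Median heights were 0.727 and 0.840 in replicates 1 and 2 in the large family, and 0.494 and 0.480 outside it.

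Some members, most of them in this large family, resembled B1, the SINE derived from 7SL RNA. RefSeq annotates the element B1_Mus2, and 21 members (4.72%) were most similar to it, against 0.453% of other shared distal regions. Members were chosen as masked sequence, while the other regions had a median of 1.90% masked bases. A higher share of likeness to a repeat is therefore built into the choice. Of the 21, 18 belonged to the family of 275, and 7 held the CTCF match. The 11 similar over 90 or more bases, at identities of 79.2 to 93.0%, were all in that family. None of these 11 held the CTCF match, and 8 had a footprint of each library. Their median heights were 0.547 in replicate 1 and 0.637 in replicate 2. Strings of RNA polymerase III promoters were searched too: the A box (TGGCNNAGT) was in 2.70% of member centres and 3.996% of other centres, and the B box (GTTCGANNC) in 0.674% and 0.411%. Best matches to a tRNA gene were found for 7 members (1.57%), over 403 RefSeq tRNA genes, against 0.490% of other regions. Only the best match of each member was kept, so likeness to 7SL RNA behind a match to B1 was not examined.

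The tallest of the 11 B1-like members lay 48735 bp from the start of Sfi1, a centrosome gene, in an intron, with heights of 1.57 in replicate 1 and 1.09 in replicate 2. It is shown whole because it carries no CTCF match, and nothing is capitalised.
Sfi1 member, chr11:3138461-3138620, plus strand: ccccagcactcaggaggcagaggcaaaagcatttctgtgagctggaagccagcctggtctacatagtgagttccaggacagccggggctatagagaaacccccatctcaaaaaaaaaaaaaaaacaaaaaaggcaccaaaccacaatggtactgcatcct

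Multi-copy members were those in which under 50% of the 36-base words occur at 1 place in the reference. There were 109 of them (24.5% of members), against a background of 1.16% over all shared distal regions, and 390 (0.915%) of the other regions were of this kind. Members were chosen as repeat sequence, so this contrast is not independent of the rule that chose them. The median share of unique words was 89.6% over all members and 100% over other regions. Median heights were 0.467 in replicate 1 and 0.412 in replicate 2 for multi-copy members, against 0.704 and 0.825 for the other 336 members, and 63 of 109 (57.8%) against 302 of 336 (89.9%) had a footprint of each library. How reads that align at several places were treated is not given in the sources used here, and its part in these heights was not tested.

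The tallest member of all was a multi-copy region on chromosome 9 near Gm10722 (chr9:3002041-3002220), in an intron, 1119 bp from the nearest start, with heights of 4.31 in replicate 1 and 10.3 in replicate 2. A second one, near Gm11168 (chr9:3006800-3006920), had 3.38 and 3.40. The 4180 bp around the first matched itself best at a shift of 234 bp, at 75.5% identity, and the 4121 bp around the second at the same shift. No repeat name is assigned to this array. The median 36-base word of the first member occurs at 28 places in the reference, and copies missing from the reference are not in that number. The first is printed whole, with no capitals.
Gm10722 member, chr9:3002041-3002220, plus strand: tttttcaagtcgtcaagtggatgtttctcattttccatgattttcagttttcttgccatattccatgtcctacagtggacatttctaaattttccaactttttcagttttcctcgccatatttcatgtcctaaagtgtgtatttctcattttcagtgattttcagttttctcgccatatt

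The tallest short tandem member lay on chromosome 12, 82111 bp from the start of Tmem196. Tandem runs made up 100% of its bases, with aaccct (6 bp) as the main unit. Its heights were 1.41 and 4.08 in replicates 1 and 2, and its median word occurs at 1614 places. In this member and in the taller of those on chromosome 9, replicate 2 was more than 2-fold taller. Short tandem members, with 50% or more of their bases in perfect runs of units of 1 to 6 bp, numbered 7 of 445 (1.57%, exact interval 0.635 to 3.21%). After the Tmem196 member, the tallest were the Tlr4 member with a 5 bp unit and a member near Vmn2r87 with a 6 bp unit, which had 0.934 in replicate 1 and 0.457 in replicate 2. The (AC)n member on chromosome 15 had 0.398 and 0.585, and its median word occurs at 691735 places.

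A multi-copy family, the fourth in size, held the YY1 consensus in 2 members. It had 5 members on chromosomes 8 and 14, all multi-copy. All 5 were taller in replicate 1, as were 36 of the 57 members whose median word occurs 2 to 10 times. The family's tallest lay 317674 bp from the start of Dad1, an oligosaccharyltransferase subunit gene, and overlaps the annotated gene Gm43647. It had 3.84 in replicate 1 and 1.60 in replicate 2. It is printed over its first 300 bases, with capitals marking AAGATGGCG, a YY1 consensus, which occurs in 2 places in it.
Dad1 member, chr14:53935921-53936220, plus strand: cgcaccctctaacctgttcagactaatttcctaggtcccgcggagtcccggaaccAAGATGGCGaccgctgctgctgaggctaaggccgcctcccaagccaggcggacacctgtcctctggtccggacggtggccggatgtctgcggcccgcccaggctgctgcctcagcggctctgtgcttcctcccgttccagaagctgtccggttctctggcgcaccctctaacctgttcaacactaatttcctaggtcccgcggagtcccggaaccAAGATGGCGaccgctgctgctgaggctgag

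The YY1 consensus was found in 6 members in all, 2 of them in this family. The member near Slc10a2 of the same family had 0.871 and 0.255 in replicates 1 and 2. YY1 is a zinc finger factor known to bind the start of human L1 elements. In member centres the string was found in 0.674%, against 0.298% of other centres.

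Long terminal repeats of retroviruses are followed by a primer binding site that pairs with the end of a tRNA. A string of 18 bases that pairs with an annotated tRNA gene, with up to 2 mismatches, was found in 6 members (1.35%, exact interval 0.496 to 2.91%), against 213 other shared distal regions (0.4998%). Without a mismatch it was found in 3 members (0.674%) and 3 other regions (0.00704%). Members were chosen as repeat sequence, so these contrasts are not independent of the rule that chose them. Of the 6 members, 3 formed part of a family of 5, on chromosomes 10, 4 and 8, and matched tRNA-Phe and tRNA-Ser genes with 2 mismatches. The tallest of that family lay 76159 bp from the start of Dusp6, a phosphatase of ERK kinases, with heights of 1.99 in replicate 1 and 1.14 in replicate 2. The member near Olfr330 on chromosome 11 matched without mismatch, with 2.99 and 1.01, and 2 members on chromosome Y matched tRNA-Gly without mismatch. All 6 were taller in replicate 1. So were 36 of the 57 members whose median word occurs 2 to 10 times. At 11 to 100 times it was 20 of 32, and at over 100 it was 12 of 20.

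The tallest members of the other large families were modest. In the family of 7 members it lay 875812 bp from the start of Ddx18, an RNA helicase gene, with 0.536 in replicate 1 and 0.675 in replicate 2. In a family of 4 members it lay near Zfp988, a zinc finger gene, with 0.754 and 0.525.

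The libraries differed more over multi-copy members. Height was at least 2-fold higher in replicate 1 than in replicate 2 for 20 members (4.49%), against a background of 0.362% over all shared distal regions, and at least 2-fold higher in replicate 2 for 13 (2.92%), against 6.75%. Of the 20, 14 were multi-copy, which is 12.8% of multi-copy members and compares with 1.79% of the other members. In the 390 multi-copy regions that are not members, 27 (6.92%) were at least 2-fold higher in replicate 1 and 15 (3.85%) in replicate 2. The median log2 ratio of replicate 1 over replicate 2 was 0.18 in multi-copy members, -0.10 in the other members and -0.22 in the other shared distal regions. It was 0.11 for members whose median word occurs 2 to 10 times, 0.42 for 11 to 100 and 0.21 for over 100, with 57, 32 and 20 members. The SD of the log2 ratio was 0.68 in multi-copy members and 0.49 in the rest.

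**Figure D4:**
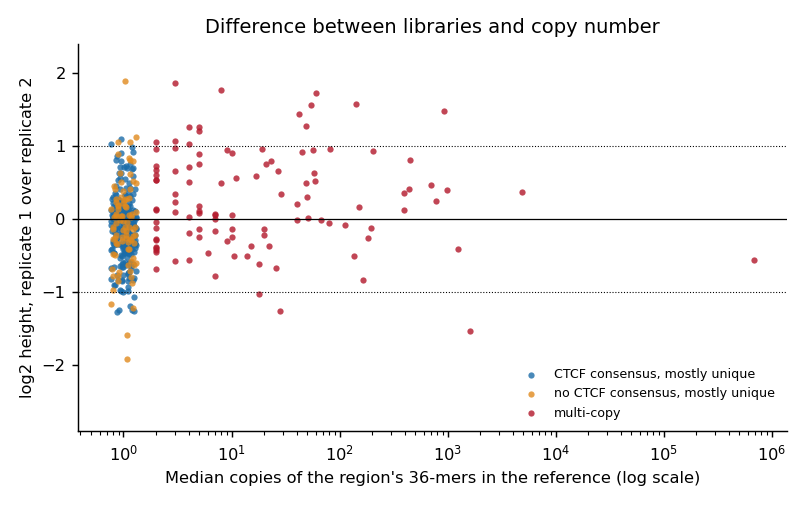
Median number of copies of the region's 36-base words in the reference (log axis; points at 1 are spread sideways) against the log2 ratio of height, replicate 1 over replicate 2, for the 445 members coloured by kind. Dotted lines mark 2-fold, and 14 multi-copy members lie on or above the upper line and 3 on or below the lower one.

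**Figure D5:**
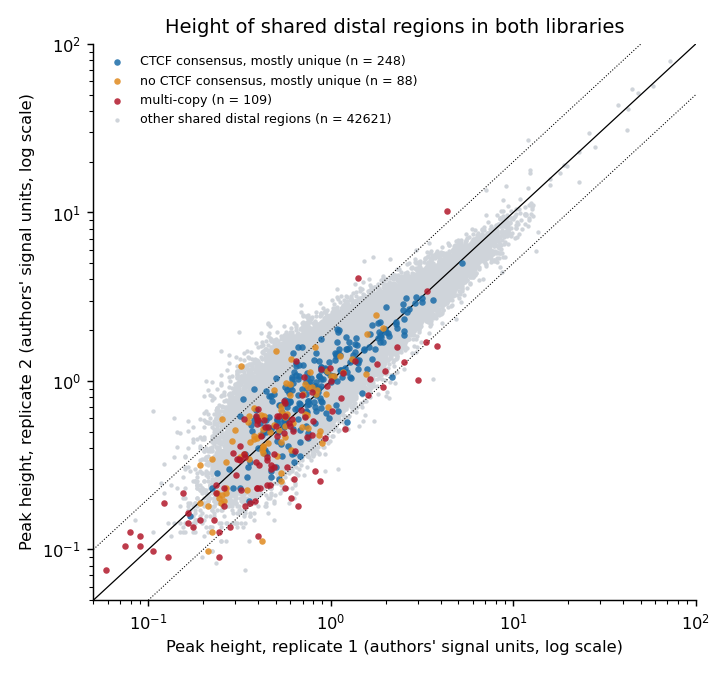
Peak height in replicate 1 against replicate 2 (authors' signal units, log axes) for members by kind and for the 42621 other shared distal regions in grey, with the line of equal height and dotted lines at 2-fold. Members lie mostly in the lower part of the grey cloud, and multi-copy members lean toward replicate 1. Their median log2 ratio of replicate 1 over replicate 2 was 0.18, against -0.22 in grey. The highest ratio was 1.87 in multi-copy members and 2.18 in grey.

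Members were spread over all chromosomes, but unevenly. They were 18 of 36 shared distal regions on chromosome Y (exact interval of the share 32.9 to 67.1%) and 27 of 996 on X (2.71%), while on chromosome 13 they were 7 of 1869 (0.375%). The 18 on Y included 15 multi-copy ones, had median heights of 0.239 in replicate 1 and 0.172 in replicate 2, and had a footprint of each library in 5. The 27 on X included 19 with the CTCF match and had medians of 0.409 and 0.532. Members within 50 kb of another formed 17 clusters with 46 members, 34 of them multi-copy. The largest held 5 each, near Pramef17 on chromosome 4 and between Gas8 and Rhou on chromosome 8. The same count is not given for other shared distal regions, so whether members lie closer together than those cannot be told.

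By their centres, 251 members (56.4%) were between protein-coding genes, 188 (42.2%) in introns and 6 (1.35%) in exons, against 51.4%, 41.5% and 7.09% of other shared distal regions. The nearest protein-coding start was a median of 17601 bp away for members and 24099 bp for other regions. It was 14054 bp away for members with the CTCF match, and 36793 bp for those without it. Genes that are not protein-coding overlapped 41 members (9.21%), against 12.4% of other regions. Among the kinds, 15 members (3.37%) overlapped lincRNA genes, 10 (2.25%) antisense genes and 4 (0.899%) miRNA genes, against 6.199%, 3.07% and 0.0939% of other regions.

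Genes of the adrenal lists were seldom the nearest start, of members and of other shared distal regions alike. Of 27 genes of steroid hormone synthesis, 1 was the nearest start of a member, Fdx1, the ferredoxin that passes electrons to mitochondrial P450 enzymes. Its member lay 30105 bp away, held the CTCF match, and had heights of 1.07 in replicate 1 and 0.720 in replicate 2. Of 17 zonation genes, 1 was nearest to a member, Agtr1a, an angiotensin II receptor gene. Its member, similar to B1 and 5101 bp away, had 0.791 and 0.915. None of 17 cholesterol genes or 21 chromaffin genes had a member nearest or within 50 kb. The shares were 0.225% of members against 0.204% of other regions (87) for steroidogenesis, and 0.225% against 0.296% (126) for zonation. They were 0 of 445 members (exact interval up to 0.826%) against 0.0798% of other regions (34) for cholesterol and 0.136% (58) for chromaffin genes. At this number of members no difference from other regions was detectable for any of the 4 lists.

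A smaller share of peaks inside repeats than of other distal peaks had a partner in the other library. These counts concern single peaks of 1 library, more than 1 kb from a start, before merging. In replicate 1, 513 of 2459 distal peaks masked over 80% or more overlapped a peak of replicate 2 (20.9%), against 65.2% of the other distal peaks. In replicate 2, 454 of 1416 overlapped a peak of replicate 1 (32.1%), against 50.7%. The means were 26.5 ± 7.92% for masked peaks and 58.0 ± 10.2% for others (SD, n = 2). Merged regions over 1 kb from a start and masked over 80% or more numbered 3345 with a peak of either library, of which the 445 members had a peak of each.

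Recurrence went with height. In replicate 1, 1785 of the 2459 masked peaks were in the lowest quartile of distal peak heights, where 3.53% recurred, against 9.09% of other peaks in that quartile. From the second quartile up, 51.1, 78.8 and 96.3% of masked peaks recurred, against 62.5, 85.7 and 98.9% of others. In replicate 2 the direction was mixed. There 14.0% of masked peaks and 14.6% of others recurred in the lowest quartile, and 92.4% and 95.4% in the highest, while masked peaks had the higher share in the second (34.6% against 31.9%) and the third (63.5% against 60.4%). Within quartiles the gap was therefore narrower than over all peaks.

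The authors' false discovery rates, listed only under 0.05, touched little masked sequence. Listed positions covered 0.328% of masked bases and 1.66% of unmasked bases in replicate 1, and 0.356% and 2.01% in replicate 2. Of members, 240 (53.9%) in replicate 1 and 311 (69.9%) in replicate 2 held a position at 0.001 or less, against 64.4% and 83.7% of other shared distal regions.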

How the data were processed

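DNase-seq libraries of adrenal gland, 1 for each of biological replicates 1 and 2, were compared as deposited. Peaks, footprints and false discovery rates were called by the authors for each library on mm10, per the labels and the file index. Neither aligner nor callers, nor their versions, are named: not given in the sources used here. Peak height is a signal in the lists deposited by the authors, and the longer of 2 lists per library was used. The footprint score deposited by the authors was the same in every row and was not used. The false discovery rate deposited by the authors is a q-value per stretch, listed under 0.05.

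Members and gene lists were chosen with earlier results of these data known. Masked bases are lower-case letters of the RefSeq copy of GRCm38, the build that mm10 names, whose masking program the sources used here do not name. Protein-coding starts came from GENCODE vM21. Uniqueness is the percent of a region's 36-base words found once on chromosomes 1 to 19, X and Y, both strands counted. Families came from BLAST 2.17.0, and 20 consensus motifs were searched on both strands. Word counting and tandem runs were tested on simulated data. Shared footprints and motifs used an overlap of 1 bp or more. With 2 libraries the smallest two-sided p of an exact sign permutation test is 0.5, so no test was used, and intervals are exact Clopper-Pearson intervals (scipy 1.17.1) that cover counting error only. Differences of the CAST alleles from the reference were not examined.

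Regions named are the 10 tallest members, the tallest of each of the 5 largest families, the 5 with most footprint bases shared by both libraries, up to 10 nearest to a gene of the steroidogenesis, cholesterol, zonation and chromaffin lists, and 3 regions on each side of the masking threshold. Other regions were named after their values were seen: the example sequences near Sgpp1 and Sfi1, members near Slc10a2, Olfr330 and Vmn2r87 and on chromosome 15, and the clusters. Alternatives changed the masking share, peak list, distance, transcript starts, overlap, word length, tandem rule and identity, and left out each library. Some items are not reported here.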

Additional observations from a re-analysis of the deposited data

How the results depend on the processing

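Of 90 recomputed values, 46 stayed within 1.5 times the count, 1 SD between libraries or the 95% interval, 44 moved beyond it, and 0 changed sign. Masking of 50, 70, 90 and 100% or more gave 1759, 756, 230 and 116 members, or 4.08, 1.76, 0.534 and 0.269% of shared distal regions. The height difference was -0.34, -0.70 and -0.79 at 50, 90 and 100%, footprints in both libraries were in 86.8, 76.1 and 71.6%, and recurrence at 50% was 36.2%. Unique words at 50, 70, 90 and 100% were 100, 95.9, 66.0 and 38.6%, and short tandem repeats were 0.512% at 50% and 5.17% at 100%. The shorter lists gave 192 members (0.783%), 94.3% with footprints and 96.5% unique words. Beyond 5 kb, unique words were 84.3%. Regions with mostly unique words gave a height difference of -0.35 and footprints in 89.9%. Overlapping footprints of the libraries gave 75.7%. Words of 24 and 75 bases gave 57.7 and 100% unique. At 90% identity the largest family held 43 members. Without replicate 1 or without replicate 2, with every distal peak of the other library, the number was 1416 to 2459, the share 1.62 to 3.53%, the height difference -1.45 to -0.83, footprints 42.6 to 58.3%, unique words 73.6 to 86.4% and short tandem repeats 1.14 to 1.48%. Added after the data were seen, the CTCF share was 37.1% where every base is masked, 73.8% where words are mostly unique and 67.6% in both shorter lists. The causes of these shifts were not tested. No paired analysis was possible because both libraries belong to 1 group. Precision is limited by the number of libraries, 2, and by depth: the lowest members rest on 11 and 10 steps of height.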
